A study of Saccharomyces cerevisiae with 2 samples.

Results

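The 42 genes described here encode proteins of the mitochondrial ribosome of the budding yeast Saccharomyces cerevisiae. They were taken by name and not by a threshold on their values, though the list was drawn up with earlier results of these data known: 34 MRPL genes of the large subunit and 8 MRPS genes of the small subunit, among 6207 gene features in all. Of the 42, 41 had a feature in the table and 27 had a value on both arrays, 23 of the large and 4 of the small subunit. MRPL15 (YLR312W-A) was not analysed here. The RNA came from a mid2 mutant in the haploid laboratory strain BY4741, which lacks the plasma membrane sensor Mid2 of the cell wall integrity pathway. Cells growing in YEPD, a rich glucose medium, at 24 °C were exposed for 4 h to 30 µg/ml Congo Red, a dye that binds wall polymers, or were left untreated as the other part of the same culture. Each of 2 arrays carried treated and untreated RNA labelled with different dyes, treated RNA with Cy3 on array 1 and with Cy5 on array 2, and gave 1 log2 ratio per feature. Both RNAs were from the mutant and wild-type arrays were not analysed here, so nothing below can be ascribed to the missing sensor.

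Mitochondria make a handful of proteins on their own ribosomes, in yeast mostly core subunits of the respiratory chain and the ATP synthase. Nearly all proteins of these ribosomes are encoded in the nucleus, made in the cytosol and imported. Many descend from bacterial ribosomal proteins, and others are found only in mitochondria. In budding yeast growing on glucose, where fermentation dominates, genes of the mitochondrial ribosome are transcribed at modest levels, and they are commonly seen to vary as one group, often apart from the genes of cytosolic ribosomes.

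The labels do not settle which way the ratios run. The columns correlated positively over the 2738 features that both arrays measured, although the dyes were swapped (Pearson r = 0.48, Spearman rho = 0.34). These correlations run across genes, which are not independent replicates. Columns turned to one orientation could correlate so, and so could unturned columns that share a dye effect, which was not tested. The correlation therefore cannot say whether the columns were turned. Nor can it say whether the ratios are treated over untreated or the reverse, so values are only called positive or negative below. The median of all features lay at −0.27 on array 1, at −0.18 on array 2 and at −0.24 for the mean of the arrays, so a gene near −0.24 stood where the typical feature stood. Intensities were not used here, and precision is limited by there being 2 arrays. It is not stated whether these came from separate cultures, so p-values measure only the spread between these arrays, which may be technical. Of the genes specific to the labelled mating type, the a-factor genes MFA1 and MFA2 had means of −0.62 and −0.83, and the receptor gene STE2 had 2.02 on array 1 and −0.12 on array 2. HIS3 and LEU2, which the BY4741 strain lacks in whole or part, had means of −0.27 and −0.096. The alpha-factor gene MF(ALPHA)2, of the opposite mating type, also had values on both (mean −0.46), and both RNAs on an array share the genotype, so a deposited value does not show that a transcript was present. Other genes checked for mating type and strain, MF(ALPHA)1, STE3, MET17, URA3 and MID2, had no value on either array. BAR1 had a value on array 2 only, 0.36.

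The mitochondrial ribosomal protein genes sat close to the typical feature, in a narrow band mostly on its negative side. On array 1, 5 large-subunit genes, called the low tail below, lay under −1. They are 18.5% of the 27 members, against 13% of all features. The median of the 27 means was −0.28, which is −0.041 relative to all features, at −0.051 on array 1 and −0.13 on array 2. Means ran from −1.04 for MRPL23 to 0.065 for MRPL35. No member lay above 1 on either array, which on the log2 scale is a doubling. Few features did, 220 of all 2738 on array 1 and 107 on array 2. Within 0.5 of the median of all features lay the means of 22 of the 27 members, 81.5%, against 73.5% of all features.

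Limma called 0 of the 27 members, as it called 0% of all features, with the p adjusted after Benjamini and Hochberg and held under 0.05. The smallest adjusted p among members was 0.353 and the largest 0.925. At an unadjusted p under 0.05 limma gave 3 members, all negative. These are 11.1% of the members, against 13.6% of all features in either direction and 7.27% on the negative side. On the positive side it gave 0 members, against 6.28% of all features. The fit tested ratios against 0, and the median of all features lay below 0. After centring of each array it gave 0 members at an unadjusted p under 0.05, against 11.1% of all features. A rule of size asked for 2-fold or more in the mean and 1.5-fold or more on both arrays, in one direction. It took 0 members in either direction, against 2.81% of all features on the negative and 4.13% on the positive side. The 95% interval of a member's mean in the limma fit reached a median of 0.69 to each side on the log2 scale, so smaller changes than that could not be told from none for a typical member. These results do not show that the genes were unchanged.

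As deposited, the arrays gave 22 of the 27 members equal signs. Ratios were negative on both arrays for 21 of the 27 members, 77.8%, against 54.5% of all features, and positive on both for 1, MRPL35, against 15.9%. The arrays gave opposite signs for 5 members, against 29.6% of all features. If array 1 had to be turned, only these 5 members would have equal signs and the other 22 opposite ones. Set against each array's own median, which takes out the offset of the arrays, 13 members lay below on both arrays (48.1%, against 29.3% of all features). Above on both lay 3 members, MRPL35, MRPL36 and MRPS5 (11.1%, against 29.3%), and 11 were split. In the lowest 25% of all means stood 8 members and in the highest 25% stood 1. On array 2 the distances on the negative side were small, as 20 of the 27 lay below the median (50% of all features by definition) but 0 lay below −1, against 1.75% of all features. On array 1 they were larger for some, as 5 members lay below −1 (18.5%, against 13% of all features).

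**Figure D1:**
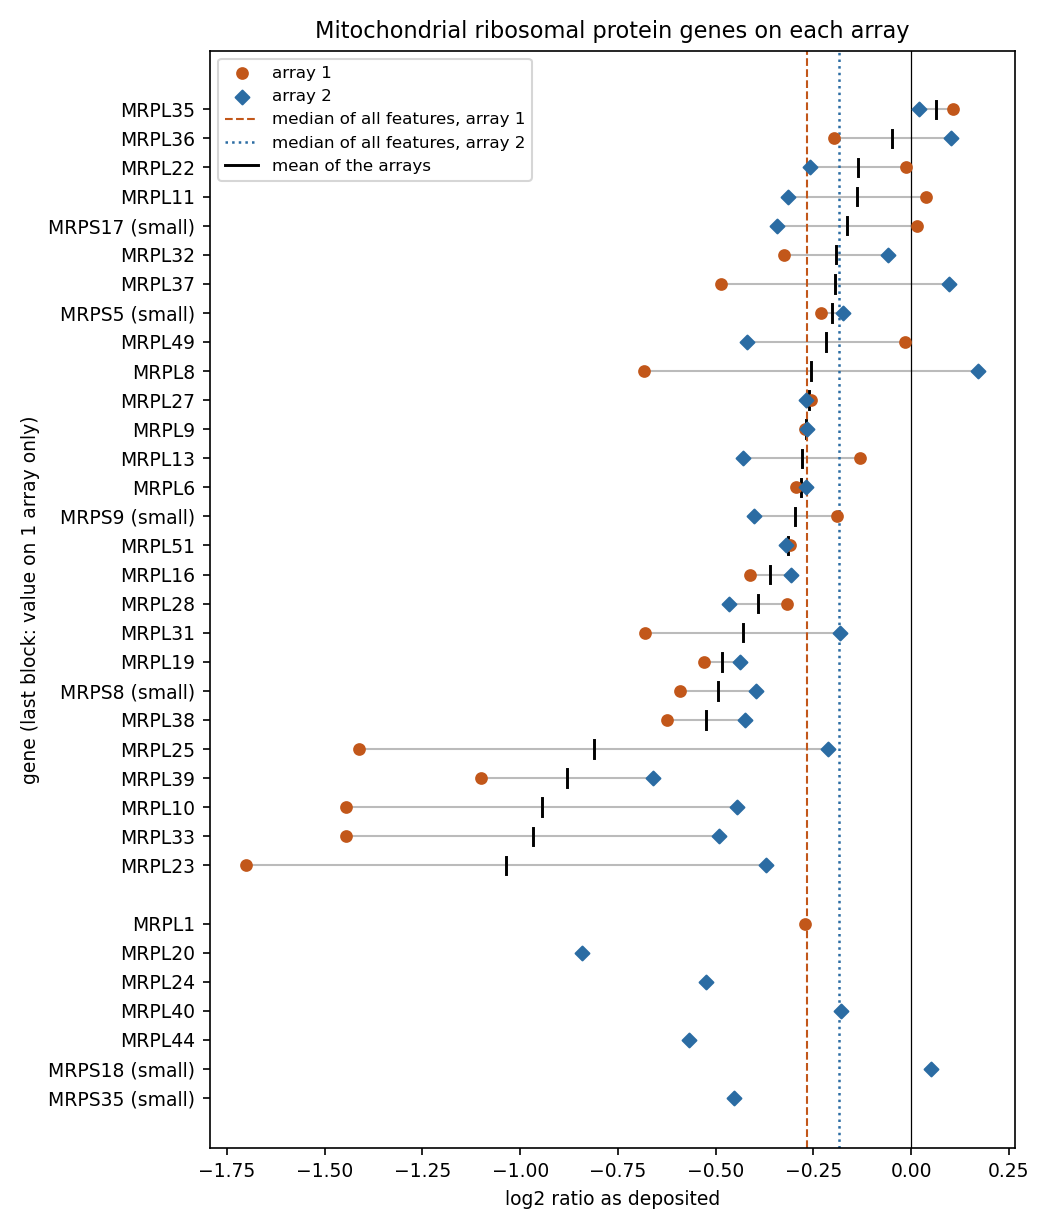
Log2 ratio (horizontal axis) of each member on array 1 (circles) and array 2 (diamonds), sorted by the mean of the arrays (short bars), with the 7 members measured on 1 array in the last block. Dashed and dotted lines mark the medians of all features at −0.27 and −0.18. The 5 lowest members reach below −1 on array 1 only, and the other 22 with both values lie between −0.68 and 0.17 on both arrays.

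Among large-subunit genes with a bacterial counterpart, the lowest mean was that of MRPL23 (YOR150W), the protein of family uL13. It had −1.70 on array 1 and −0.37 on array 2, a mean of −1.04 ± 0.94 (SD, n = 2), and limma gave an adjusted p of 0.366. The low value rests on array 1, since array 2 put the gene at −0.19 relative to the median of all features. MRPL33 (YMR286W), of family uL30, had −1.45 on array 1 and −0.49 on array 2 (mean −0.97 ± 0.67, SD, n = 2; limma adjusted p = 0.363, unadjusted 0.039). MRPL10 (YNL284C), of family uL15, had nearly the same pair, −1.44 on array 1 and −0.44 on array 2 (mean −0.94 ± 0.71, SD, n = 2; limma adjusted p = 0.363, unadjusted 0.046). Relative to the median of all features both stood at −1.18 on array 1, and on array 2 MRPL33 stood at −0.31 and MRPL10 at −0.26.

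MRPL39 (YML009C), of family bL33, was the member whose low values were nearest to each other among these, with −1.10 on array 1 and −0.66 on array 2. Its mean was −0.88 ± 0.31 (SD, n = 2), and it had the smallest p of the members, with a limma adjusted p of 0.353 and an unadjusted p of 0.027. On array 2 it was the lowest of the 27. The one mitochondria-specific protein in the low tail was MRPL25 (YGR076C), with −1.41 on array 1 and −0.21 on array 2 (mean −0.81 ± 0.85, SD, n = 2; limma adjusted p = 0.407). On array 2 it stood at −0.028 from the median. These 5 genes are the members below −1 on array 1, 18.5% of the 27, against 13% of all features. They are also the 5 members in the lowest 10% of all means, but those means include the array 1 values by which they were picked. On array 2 they ran from −0.66 to −0.21, a range in which other members also lay, such as MRPL28 at −0.47.

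MRPL38 (YKL170W), of family uL14, came next with −0.62 on array 1 and −0.43 on array 2 (mean −0.52 ± 0.14, SD, n = 2; limma adjusted p = 0.417). It stood apart from the low tail, whose highest mean was that of MRPL25 at −0.81. The means of the 22 members that did not belong to the tail ran from −0.52 to 0.065. MRPL19 (YNL185C), of family uL11, which helps form the site where translation factors bind, had −0.53 on array 1 and −0.44 on array 2. MRPL16 (YBL038W) of family uL16 had −0.41 on array 1 and −0.31 on array 2. Both lay below the median of all features on each array.

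Several large-subunit genes lay at the median of all features on array 1 and a little under it on array 2. MRPL9 (YGR220C), of family uL3, a protein near the catalytic centre, had −0.27 on each array. MRPL6 (YHR147C), of family uL6, had −0.29 on array 1 and −0.27 on array 2. The mitochondria-specific MRPL27 (YBR282W) had −0.26 and −0.27, and MRPL51 (YPR100W), also mitochondria-specific, −0.31 and −0.32. For these 4 genes the arrays differed by at most 0.026, and the means stood at −0.074 to −0.021 relative to the median of all features.

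At the top of the list stood MRPL35 (YDR322W), a mitochondria-specific protein, with 0.11 on array 1 and 0.02 on array 2 (mean 0.065 ± 0.061, SD, n = 2; limma adjusted p = 0.889). As deposited its mean was the only positive one among the members, and only 0.31 above the median of all features. After centring of each array the means of MRPL36, MRPL22, MRPL11, MRPS17 and MRPL32, among others, were positive too. MRPL36 (YBR122C), of family bL31, had −0.20 on array 1 and 0.10 on array 2 (mean −0.048 ± 0.21, SD, n = 2). MRPL32 (YCR003W), of family bL32, is known in yeast as a substrate of the m-AAA protease, which must cut it before the ribosome assembles. It had −0.32 on array 1 and −0.06 on array 2 (mean −0.19 ± 0.19, SD, n = 2). None of these values departed from the median of all features by more than the limma interval.

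MRPL22 (YNL177C), of family uL22, which lines the exit tunnel, had −0.01 on array 1 and −0.26 on array 2 (mean −0.14 ± 0.17, SD, n = 2). MRPL11 (YDL202W), of family uL10, the base of the stalk that recruits factors, had 0.04 on array 1 and −0.31 on array 2 (mean −0.14 ± 0.25, SD, n = 2). Both were above the median of all features on array 1 and below it on array 2. MRPL8 (YJL063C), of family bL17, ran the other way with −0.68 on array 1 and 0.17 on array 2, the highest member on array 2. The mitochondria-specific MRPL37 (YBR268W) did likewise, with −0.49 on array 1 and 0.10 on array 2.

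The remaining large-subunit genes with both values were MRPL13 (YKR006C), MRPL28 (YDR462W), MRPL31 (YKL138C) and MRPL49 (YJL096W), with means of −0.28, −0.39, −0.43 and −0.22. MRPL49, of family bL21, had −0.02 on array 1 and −0.42 on array 2. MRPL31 had the reverse order, −0.68 on array 1 and −0.18 on array 2. For both genes the arrays disagreed by more than the gene's own distance from the median of all features.

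The 4 small-subunit members with both values varied less than the large-subunit ones. MRPS8 (YMR158W), of family uS8, had −0.59 on array 1 and −0.40 on array 2, the only small-subunit member below the medians of all features on both arrays. MRPS9 (YBR146W), of family uS9, had −0.19 on array 1 and −0.40 on array 2. MRPS5 (YBR251W), of family uS5, had −0.23 on array 1 and −0.17 on array 2. MRPS17 (YMR188C), of family uS17, had 0.01 on array 1 and −0.34 on array 2 (mean −0.16 ± 0.25, SD, n = 2; limma adjusted p = 0.729). The small-subunit median was −0.25 and the large-subunit median −0.28, and 4 genes against 23 leave no basis for telling the subunits apart.

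Sorting the members by descent gave like positions. The 19 measured genes with a bacterial counterpart had a median of −0.28 and the 8 measured mitochondria-specific genes one of −0.30. The low tail held 4 genes of the first class and 1 of the second. Below the medians of all features on both arrays lay 10 of 19 and 3 of 8.

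**Figure D2:**
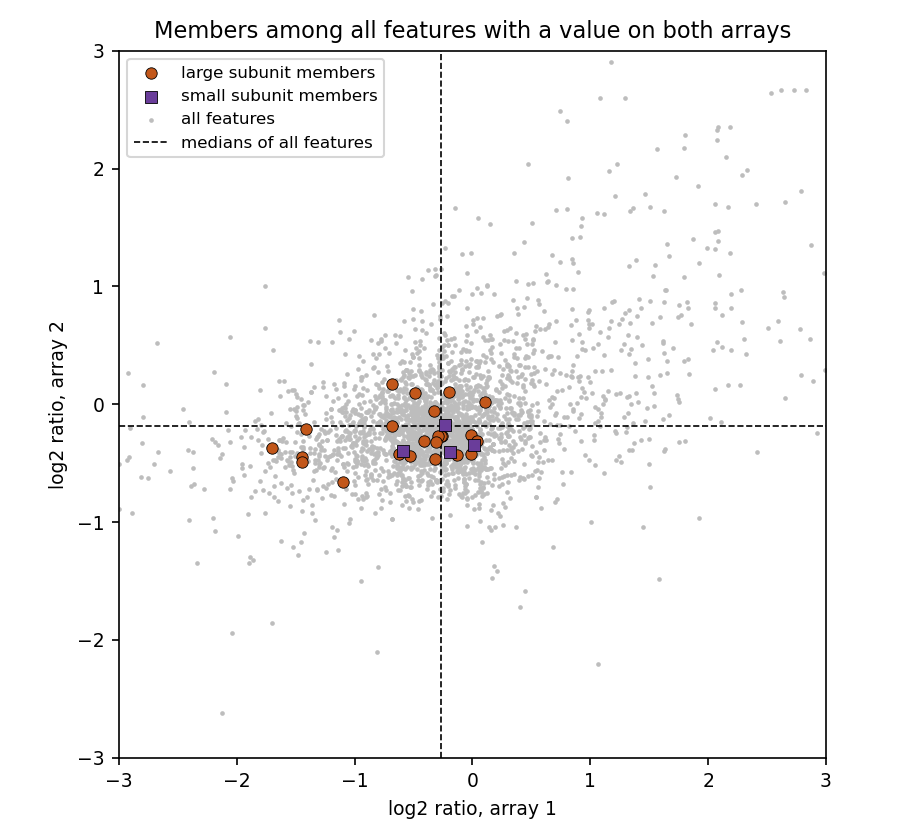
Log2 ratio on array 1 (horizontal axis) against array 2 (vertical axis) for all 2738 features with both values (grey), large-subunit members (circles) and small-subunit members (squares), with the medians of all features dashed. Axes end at 3, beyond which lie 49 features and 0 members. Of the 27 members, 13 lie left of and below the crossing of the medians, 11 are split and 3 lie right of and above it. No member lies above 1 on either axis, where the more strongly positive features lie.

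The members were less spread than all features on both arrays. On array 2 the interquartile range of the members was 0.23 on the log2 scale, against 0.50 for all features. On array 1 it was 0.46, against 0.74. Such a spread was not particular to the members. Cytosolic ribosomal protein genes had 0.19 on array 1 and 0.38 on array 2, and the other mitochondrial ribosomal protein genes described below 0.36 and 0.31. Means within 0.5 of the median of all features made up 93.0% of the cytosolic and 82.4% of the other mitochondrial genes, against 81.5% of the members. The arrays lay within 0.5 of each other for 21 of 27 members, 77.8%, against 56.2% of all features. Array 1 was the lower array for 17 members, 63.0%, against 58.4% of all features. Within this band the order of the genes was not well repeated, since across the 27 members the arrays had r = 0.27 and rho = 0.24. These correlations are descriptions over genes that share both arrays, and the narrow range of the members limits them.

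The 7 members with a value on 1 array only were mostly on array 2. MRPL1 (YDR116C), of family uL1, was measured on array 1 only, at −0.27. On array 2 only, the mitochondria-specific MRPL20 (YKR085C) had −0.84, lower than any of the 27 members there. MRPL44 (YMR225C) had −0.57, MRPL24 (YMR193W) −0.52 and MRPS35 (YGR165W) −0.45, whereas MRPL40 (YPL173W), of family uL24, had −0.18 and MRPS18 (YNL306W), of family uS11, 0.05. The median of these 6 on array 2 was −0.49, against −0.31 for the 27 members with both values. All features showed the same order on array 2, −0.51 for those without an array 1 value and −0.18 for those with one.

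A further 7 members had no value on either array: MRPL3 (YMR024W), MRPL4 (YLR439W), MRPL7 (YDR237W), MRPL17 (YNL252C), MRPL50 (YNR022C), MRPS16 (YPL013C) and MRPS28 (YDR337W). The reason for an empty cell is not given in the sources used here. The 41 members on the array were filled more often than the typical feature. Values on both arrays were present for 65.9%, against 44.1% of all features, and 17.1% had none, against 43.1%. The 27 filled members had a median gene length of 534 bp, and the other 14 on the array one of 852 bp. Among all features matched to a gene the filled ones were shorter as well, 1008 bp against 1455 bp.

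The other proteins of mitochondrial translation came from a list of 33 further ribosomal protein genes, 30 of them on the array, and 34 genes of other roles. The 17 further ribosomal genes with both values had a median of −0.31, which is −0.066 relative to all features. Limma called 0 of them after adjustment and 1 at an unadjusted p under 0.05, MRP2 (YPR166C), and the rule of size took 0. MRP2, a small-subunit protein, had −1.02 on array 1 and −0.77 on array 2 (mean −0.89 ± 0.18, SD, n = 2; limma adjusted p = 0.333, unadjusted 0.021). MRP21 (YBL090W), also of the small subunit, had −1.32 on array 1 and −0.29 on array 2, the pattern of the low tail of the members. At the other end stood RML2 (YEL050C), a large-subunit protein near the catalytic centre, with 0.57 on array 1 and 0.19 on array 2.

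Other ends of these lists were moderate. MRP49 (YKL167C) had −0.54 on array 1 and −0.63 on array 2, and MRP20 (YDR405W), a protein of the tunnel exit, −0.44 and −0.30. IMG1 (YCR046C) had −0.47 on array 1 and 0.48 on array 2. The small-subunit genes MRP51 (YPL118W), with 0.16 on array 1 and −0.21 on array 2, and MRPS12 (YNR036C), with −0.52 and 0.17, likewise changed sign between the arrays. Below the medians of all features on both arrays lay 7 of the 17, 41.2%, against 29.3% of all features. Their interquartile range on array 2 was 0.31 on the log2 scale, wider than that of the members at 0.23. On array 1 the order was reversed, with 0.36 for these genes and 0.46 for the members.

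**Figure D3:**
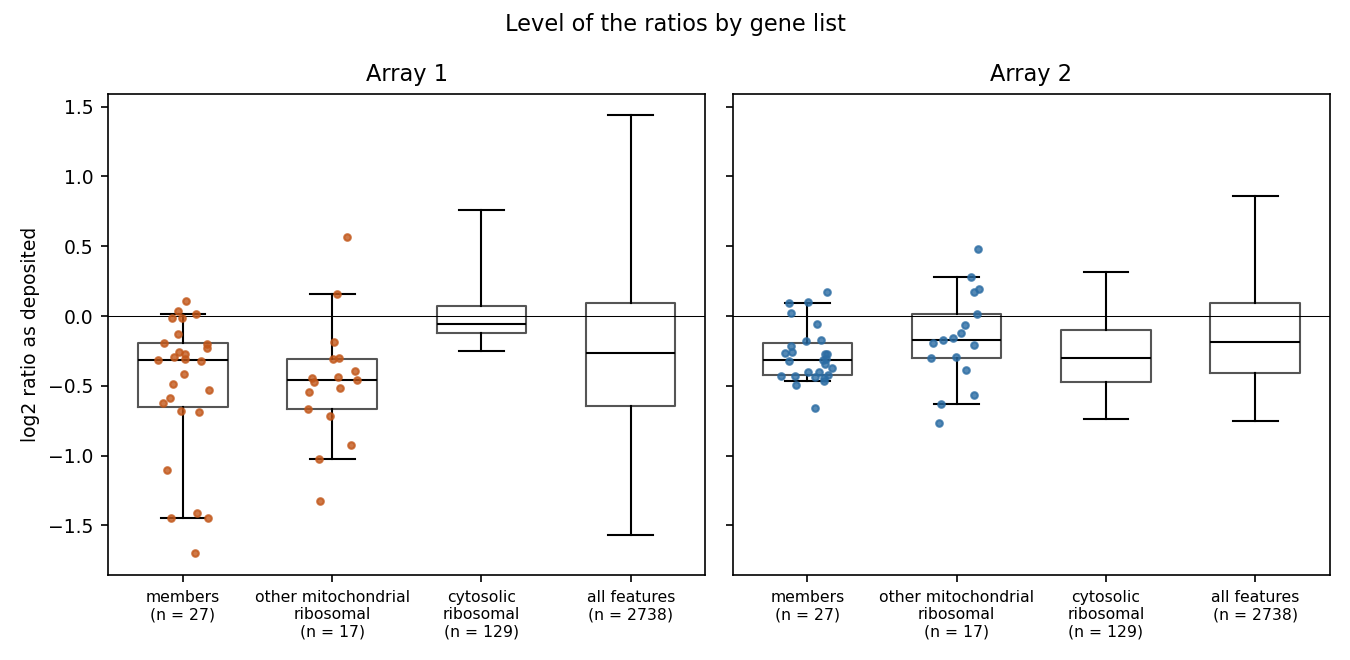
Log2 ratios on array 1 (left) and array 2 (right) for members, other mitochondrial ribosomal protein genes, cytosolic ribosomal protein genes and all features, over features with both values. Boxes span the quartiles with the median as a line, whiskers the 5th to 95th percentile, and points are single genes of the first 2 lists. The members' median lies below that of the cytosolic genes on array 1 (−0.32 against −0.057) and next to it on array 2 (−0.31 against −0.30).

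Few genes of the remaining roles had values. Of the 34 translation factors, mitochondrial aminoacyl-tRNA synthetases, translational activators and assembly factors, 5 had both values, 14.7%, and 21 had none. MRF1 (YGL143C), the release factor, had −0.20 on array 1 and 0.28 on array 2. SLM5 (YCR024C), the asparaginyl-tRNA synthetase, had −0.64 and 0.01, and MTG2 (YHR168W), a GTPase of large-subunit assembly, −0.77 and 0.10. CBP6 (YBR120C), an activator of cytochrome b synthesis, had 0.04 on each array. MSS51 (YLR203C), the activator of COX1 translation, had −5.20 on array 1 and 1.05 on array 2, a gap far wider than that of any member. Of the 2 transcription genes listed beside these 34, RPO41 (YFL036W), the mitochondrial RNA polymerase, had −1.37 on array 1 and 0.34 on array 2, and its partner MTF1 (YMR228W) had no value. Limma called 0 of the 6 genes with both values, at an adjusted or an unadjusted p under 0.05.

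**Figure D4:**
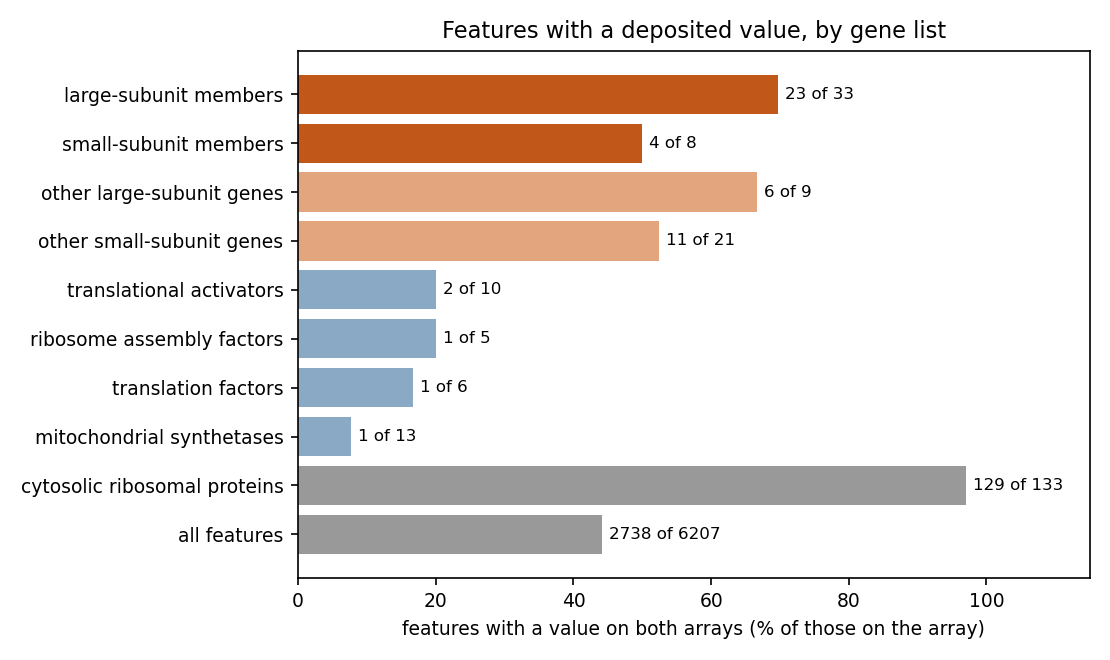
Share of features on the array with a value on both arrays (horizontal axis, %) by gene list (vertical axis), with counts beside the bars. The large-subunit members reach 69.7% and the small-subunit members 50.0%, against 7.69% to 20.0% for the 4 lists of factors, 97.0% for cytosolic ribosomal proteins and 44.1% for all features.

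Set beside the proteins of cytosolic ribosomes, the members lay lower on array 1 and at the same place on array 2. The 129 measured cytosolic ribosomal protein genes had a median of −0.057 on array 1, against −0.32 for the members, and −0.30 on array 2, against −0.31. In the mean of the arrays the members' median stood at −0.11 relative to theirs. Below the medians of all features on both arrays lay 48.1% of the members and 3.88% of the cytosolic genes. Many cytosolic genes have near-identical copies that share hybridisation signal, so their values are not independent of each other. The difference between the lists was not tested.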

How the data were processed

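The deposited values are log2 ratios, 1 per feature and array, not centred on the median; the log2 scale was inferred from the numbers. Per the labels' protocols, Cy5- or Cy3-labelled first-strand cDNA of total RNA was hybridised. For the scanner, normalization, filters and genome build, the answer is "not given in the sources used here". The labels describe 4 arrays per condition, and 2 were analysed here. The ratios were used unchanged, without the control features 3XSSC and Arabidopsis. A RefSeq gene table (R64) gave names and lengths for 5654 of 6207 features.

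All 2738 features with both values (2832 on array 1, 3440 on array 2) entered a two-sided limma fit (lmFit, eBayes, version 3.58.1, R version 4.3.3), with Benjamini-Hochberg adjustment across them. The procedure was tested on simulated data. Members and lists were chosen with earlier results of these data known. YFR049W was dropped from the small-subunit list, since the gene table calls it KGD4. Families and descent come from general knowledge. By rule the text names the 6 highest and 6 lowest member means, members at unadjusted p under 0.05 or past the rule of size, the 4 widest gaps between arrays, members with 1 or no value, and the 2 highest and 2 lowest of each other list; the other members are given to complete the list. Alternatives were centring, scaling, quantile normalization, robust moderation, the orientation of the ratios, leaving out an array, features with either value, a filter on the gap between arrays, and lower limits of size. Plots used matplotlib 3.10.9 and Python 3.11.15.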

Additional observations from a re-analysis of the deposited data

How the results depend on the processing

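The median position of the members stayed on the negative side of all features under every alternative run. It ranged from −0.085 without replicate 1 to −0.0089 with features measured on either array, and was −0.033 without replicate 2. Centring, robust moderation and lower limits of size cannot move it from −0.041. Without the 5 genes of the low tail, an alternative chosen after seeing the data, it was −0.024. Relative to cytosolic ribosomal protein genes instead of all features, also chosen after seeing the data, the members' median stood at −0.11. The count of 13 below the medians on both arrays cannot move under centring, scaling or quantile normalization, which keep the order within an array. It was 11 among features whose arrays differ by at most 1, and 7 with the ratios read as never turned. With a single array, 16 of 28 members lay below the median on array 1 and 23 of 33 on array 2. Those counts use more members and ask for less, since the median of an array splits all its features evenly. Members at an unadjusted p under 0.05 numbered 0 after centring (11.1% of all features passed), 1 after scaling (3.70%, against 13.6% of all features), 0 with the ratios never turned (0.548% of all features) and 5 of 24 with the filter on the gap between arrays (20.8%, against 29.3%), compared with 3 as deposited (11.1%, against 13.6%). That filter removes the features with the widest spread, on which the test rests, and limma then called 2 members after adjustment, MRPL33 and MRPL39 (adjusted p = 0.00058 and 0.0022), among 384 of 2272 features (16.9%). The rule of size took 4 members at lower limits, 1.5-fold in the mean (MRPL10, MRPL23, MRPL33 and MRPL39, all negative, as were 11.9% of all features). A limit of 2-fold on a single array took 5 of 28 members on array 1, 17.9%, against 22.4% of all features. On array 2 that limit took 0 of 33 members, against 9.3% of all features. No paired analysis was possible because there is a single group; each ratio is already a difference between the RNA pair on its array.

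Genes near the median of all features turned sign when the offset of the arrays was removed. After centring and after scaling, MRPL36 had 0.18 and 0.21, MRPL22 0.089 and 0.057, MRPL11 0.087 and 0.043, MRPS17 0.061 and 0.015, MRPL32 0.033 and 0.054, MRP51 0.20 and 0.16, and MRPS12 0.052 and 0.12. With the ratios read as never turned, the values of the opposite sign were 0.62 for MRPL23, 0.56 for MRPL25, 0.46 for MRPL10, 0.44 for MRPL33, 0.18 for MRPL39, 0.11 for MRPL36, 0.091 for MRPL32, 0.058 for MRPL38 and −0.084 for MRPL35, and in the other lists 3.08 for MSS51, 0.82 for RPO41, 0.47 for MRP21, 0.39 for MTG2, 0.30 for MRPS12, 0.28 for SLM5, 0.087 for MRP2, 0.029 for MRP20, −0.044 for CBP6 and −0.23 for RML2. By construction, that reading gives a positive value where the centred ratio is lower on array 1 than on array 2. With single arrays the sign turned within the ranges −0.20 to 0.10 for MRPL36, −0.31 to 0.039 for MRPL11, −0.34 to 0.014 for MRPS17, −0.47 to 0.48 for IMG1, −0.21 to 0.16 for MRP51, −0.52 to 0.17 for MRPS12, −0.20 to 0.28 for MRF1, −0.64 to 0.0055 for SLM5, −5.20 to 1.05 for MSS51, −0.77 to 0.097 for MTG2 and −1.37 to 0.34 for RPO41.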
